A study of Mus musculus with 6 samples.

Results

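The Reg genes (regenerating gene family) encode small secreted proteins with a C-type lectin fold, and their RNA was measured here in the livers of mice given alcohol for 1, 2 or 4 months. The array carried 1 probe for each of 7 Reg genes among 28786 distinct gene names. Reg1, Reg2, Reg3a, Reg3d, Reg3g and Reg4 were found by a name that begins with Reg and a digit, and Reg3b by its RefSeq transcript, since the array lists it under its older name Pap (pancreatitis-associated protein). The family was chosen by its measured alcohol over control ratios on these same arrays, so the ratios below are a description and carry no test.

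All animals were male 129/Sv mice, 6 to 8 weeks old when the feeding began. The alcohol groups had free access to a liquid diet with 4% ethanol, and the control groups were given a diet of equal calories in which maltose dextran took the place of ethanol. At each of 1, 2 and 4 months the liver RNA of 6 alcohol mice was mixed into 1 pool and that of 6 control mice into another. Each pair of pools was hybridised to 2 arrays, with the alcohol pool in the red dye (Cy5) on the first and in the green dye (Cy3) on the second. The 2 arrays of a month are technical replicates of the same RNA, and every SD given below is the spread of those 2 arrays. It does not measure variation between mice, and with 1 pool per group no p-value for alcohol at a single month could be had. A test over the 3 months was not made, since the genes were chosen on these ratios. The 1-month arrays were on one slide and the 2-month and 4-month arrays on another, so that slide and month cannot be told apart where 1 month is set against a later one. Within a month both pools were always on the same array.

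In the healthy mouse, Reg1, Reg2 and Reg3d are best known from the exocrine pancreas, where acinar cells secrete Reg proteins together with digestive enzymes. Reg3b and Reg3g are antibacterial lectins of the gut lining, and cytokines such as IL-22 and IL-6, which act through STAT3, are known to induce them. Several members are also switched on in injured or inflamed tissue, and Reg3b was first described in pancreatitis. All 17 hepatocyte genes on the array, among them Apoa1, Apob and Fabp1, were above background in every month. So were all 13 bile duct genes, and 73.1% to 90.3% of all probes in a channel. The count therefore cannot tell liver from another tissue. Whole liver was measured, so more RNA per cell and more cells of a kind that makes a Reg gene cannot be told apart.

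In the RefSeq annotation of mouse assembly GRCm38.p6, 6 of the 7 genes stand side by side on chromosome 6 in the order Reg3b, Reg3d, Reg3a, Reg2, Reg1 and Reg3g, with 1 other gene among them, the pseudogene Gm52853 between Reg1 and Reg3g. Reg4 lies apart on chromosome 3. The 250 bases before the start of transcription are shown for Reg1, Reg2 and Reg3d, the 3 members raised in the alcohol pool at 4 months, and for Reg3g, whose ratio stayed near 1 throughout. The windows, from RefSeq on GRCm38.p6, are chr6:78425733-78425982 on the plus strand for Reg1, chr6:78404905-78405154 on the plus strand for Reg2, chr6:78378866-78379115 on the minus strand for Reg3d and chr6:78468875-78469124 on the minus strand for Reg3g. They read 5′ to 3′ toward the gene, and capitals mark TATAAA, the TATA box, and CACCTG, an E box, on either strand.
Reg1: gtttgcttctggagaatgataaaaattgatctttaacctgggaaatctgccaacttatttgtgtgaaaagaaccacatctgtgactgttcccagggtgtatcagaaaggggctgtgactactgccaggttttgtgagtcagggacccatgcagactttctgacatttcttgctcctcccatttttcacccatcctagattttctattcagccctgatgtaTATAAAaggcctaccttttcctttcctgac
Reg2: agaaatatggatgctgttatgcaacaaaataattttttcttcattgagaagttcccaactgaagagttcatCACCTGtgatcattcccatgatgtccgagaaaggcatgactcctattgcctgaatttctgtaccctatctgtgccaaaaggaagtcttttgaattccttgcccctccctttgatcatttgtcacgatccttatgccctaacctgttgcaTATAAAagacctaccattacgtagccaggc
Reg3d: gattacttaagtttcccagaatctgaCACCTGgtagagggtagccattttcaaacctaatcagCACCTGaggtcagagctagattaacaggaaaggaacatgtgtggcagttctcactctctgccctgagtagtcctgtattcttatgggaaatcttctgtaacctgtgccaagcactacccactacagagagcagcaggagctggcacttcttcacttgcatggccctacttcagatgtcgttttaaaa
Reg3g: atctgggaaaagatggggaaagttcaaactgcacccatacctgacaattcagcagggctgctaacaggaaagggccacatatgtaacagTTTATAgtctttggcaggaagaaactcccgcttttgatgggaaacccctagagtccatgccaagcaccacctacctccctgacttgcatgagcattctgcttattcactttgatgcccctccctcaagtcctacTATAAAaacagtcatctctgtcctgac

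TATAAA was found in 4 of the 7 Reg windows and in 12.4% of the 32851 promoter windows of the same length. On the strand of the gene it began 30 bases before the start in both Reg1 and Reg2, 29 bases before it in Reg3b and 27 bases before it in Reg3g, and it was not in the Reg3d window. Reg1 and Reg2 also matched at 33 of the 50 bases nearest the start when set side by side without gaps, as did Reg3b and Reg3g, while Reg1 and Reg3d matched at 16. CACCTG, one of the short motifs of the site bound by PTF1, an acinar cell transcription factor, was in 5 of the 7 windows against 17.2% of all windows. The other motif of that site, TTTCCCA, was in the windows of Reg1, Reg3d and Reg3g against 6.82% of all. Reg3d was the 1 member that held both, as did 1.17% of all windows. The STAT motif TTCNNNGAA was in the Reg3b and Reg3d windows against 7.02% of all. Both strands were searched. The motifs do not share bases with one another in the windows printed, except that TTTCCCA overlaps TTCNNNGAA in Reg3d, and a match describes letters and not a bound site.

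At 4 months Reg1, Reg2 and Reg3d were raised in the alcohol pool, 3 of the 7 genes, and 0 were lowered. A gene is counted as raised or lowered when the mean of its 2 arrays was at least 2-fold and stood clear of the error that the scanner software attached to each ratio, which is a filter on technical noise. The same rule marked 0.340% of all 41174 probes as raised and 0.282% as lowered at 4 months. The median log2 ratio of alcohol over control was 1.41 over the 7 genes, beside -0.0011 over all probes. That middle value is the ratio of Reg3b, which was above background in neither pool, and with normexp and loess, an alternative background and dye correction, the median was 0.41. Both arrays gave the same sign for 6 of the 7 genes and for 30.6% of all probes. At 1 month 0 Reg genes were raised, where 0.126% of all probes were, and 1 was lowered, Reg3b, where 0.0801% of all probes were. At 2 months 0 were raised and 0 lowered, beside 0.160% and 0.129% of all probes. The median log2 ratio of the family was -0.081 at 1 month and 0.069 at 2 months, when the median of all probes was 0. In both months the middle value is that of Reg3g, whose arrays differed in sign, so these medians give no direction. Both arrays gave the same sign for 1 of the 7 genes at 1 month and 3 at 2 months, beside 42.6% and 32.9% of all probes.

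**Figure D1:**
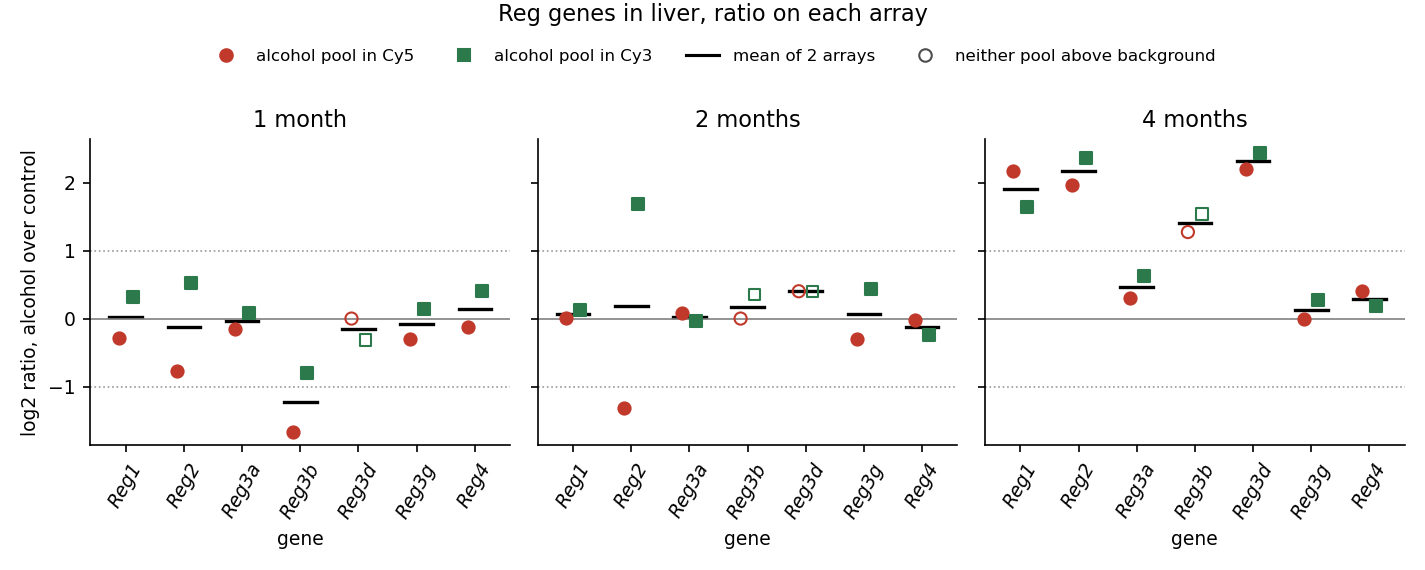
Log2 ratio of alcohol over control for the 7 Reg genes (x axis) at 1, 2 and 4 months, with a circle where alcohol was in Cy5, a square where it was in Cy3 and a bar for their mean. Dotted lines mark 2-fold, and open symbols mark months in which neither pool was above background. Reg1, Reg2 and Reg3d lie above the upper line on both arrays at 4 months, Reg2 splits to opposite sides of 0 at 2 months, and Reg3b lies below 0 on both arrays at 1 month.

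Reg2, a secreted protein of acinar cells, was above background in both pools on both arrays at 4 months. Its processed signal in the control pool was 129.8 on the first array (alcohol in Cy5) and 84.5 on the second (alcohol in Cy3), and in the alcohol pool it was 509 and 433. Both alcohol signals were above both control signals. The log2 ratio was 1.97 on the first array and 2.36 on the second, with a mean of 2.17 ± 0.27 (SD), or 4.49-fold. At 2 months the same probe gave a log2 ratio of -1.32 with alcohol in Cy5 and 1.68 with alcohol in Cy3, so that the sign followed the dye and the mean of 0.18 ± 2.12 (SD) gives no direction. The control pool was above background on 1 of the 2 arrays in that month. At 1 month the arrays again disagreed, at -0.77 and 0.53, with a mean of -0.12 ± 0.91 (SD).

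Reg1, the neighbour of Reg2 and likewise known from pancreatic secretion, had a log2 ratio of 2.16 with alcohol in Cy5 and 1.64 with alcohol in Cy3 at 4 months, a mean of 1.90 ± 0.37 (SD) or 3.74-fold. The control pool read 47.0 and 80.5 in signal on the 2 arrays and the alcohol pool 210.5 and 251, which do not overlap. At 2 months its signals lay between 31.6 and 40.2 in both pools, with a ratio of 0.065 ± 0.079 (SD). At 1 month the 2 arrays read the same RNA far apart, with the control pool at 55.0 and 168 and the alcohol pool at 44.9 and 210.1, and each pool was above background on 1 array. The ratio within each array was small nonetheless, at -0.29 and 0.32.

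Reg3d, which is related to the islet neogenesis-associated protein and is also expressed in the pancreas, was the third gene raised at 4 months. The alcohol pool read 48.3 and 35.2 in signal and was above background on both arrays, whereas the control pool read 10.5 and 6.51 and was above background on neither. The log2 ratios from these signals were 2.21 and 2.43, with a mean of 2.32 ± 0.16 (SD). Because the control pool was not well above background, the fold is given only as a limit, and the alcohol pool was at least 1.47-fold higher. That limit sets the mean of the alcohol pool against the dimmest signal above background in the control channel on each array, after the arrays were corrected by a method that adds a constant to every signal and so draws low ratios toward 1. With that correction Reg3d no longer passed the 2-fold rule, and 2 Reg genes in place of 3 were counted as raised. At 1 and 2 months neither pool of Reg3d was above background on either array.

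Reg3b, the pancreatitis-associated protein, was above background in a single pool of the series, the control pool of 1 month, where it read 88.8 and 95.5. The alcohol pool of that month read 28.1 and 55.1 and was above background on neither array. The log2 ratios were -1.66 and -0.79, with a mean of -1.23 ± 0.61 (SD), and as a limit the control pool was at least 1.22-fold higher. Reg3b was no longer lowered with normexp and loess, where the mean was -0.65, on the second array alone, or when 2-fold was asked of each array. At 2 months neither pool was above background. The same held at 4 months, where the alcohol pool read 19.5 and 17.6 and the control pool 8.08 and 6.07, so no fold is given although the alcohol reading was above the control reading on both arrays. Counting genes at least 2-fold higher on each array, with no regard to the error, added Reg3b to Reg1, Reg2 and Reg3d at 4 months, which made 4 of 7 beside 0.214% of all probes.

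Reg3a, Reg3g and Reg4 were measured above background in every pool and on each of the 6 arrays. Reg3a, which in the mouse is a pancreatic and intestinal lectin, had log2 ratios of 0.30 and 0.63 at 4 months, a mean of 0.47 ± 0.23 (SD) or 1.38-fold, and means of -0.040 ± 0.17 and 0.021 ± 0.086 at 1 and 2 months. Its ratio at 4 months had the same sign on both arrays and stayed short of 2-fold. Reg3g, the antibacterial lectin of the gut, gave -0.0059 and 0.27 at 4 months, a mean of 0.13 ± 0.20 (SD), and its 1-month and 2-month means of -0.081 ± 0.32 and 0.069 ± 0.52 were within their SDs of 0. Reg4, the member on chromosome 3 and a product of the digestive tract, gave 0.41 and 0.18 at 4 months, a mean of 0.29 ± 0.16 (SD) or 1.22-fold. Its means at 1 and 2 months were 0.14 ± 0.38 and -0.13 ± 0.16.

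**Figure D2:**
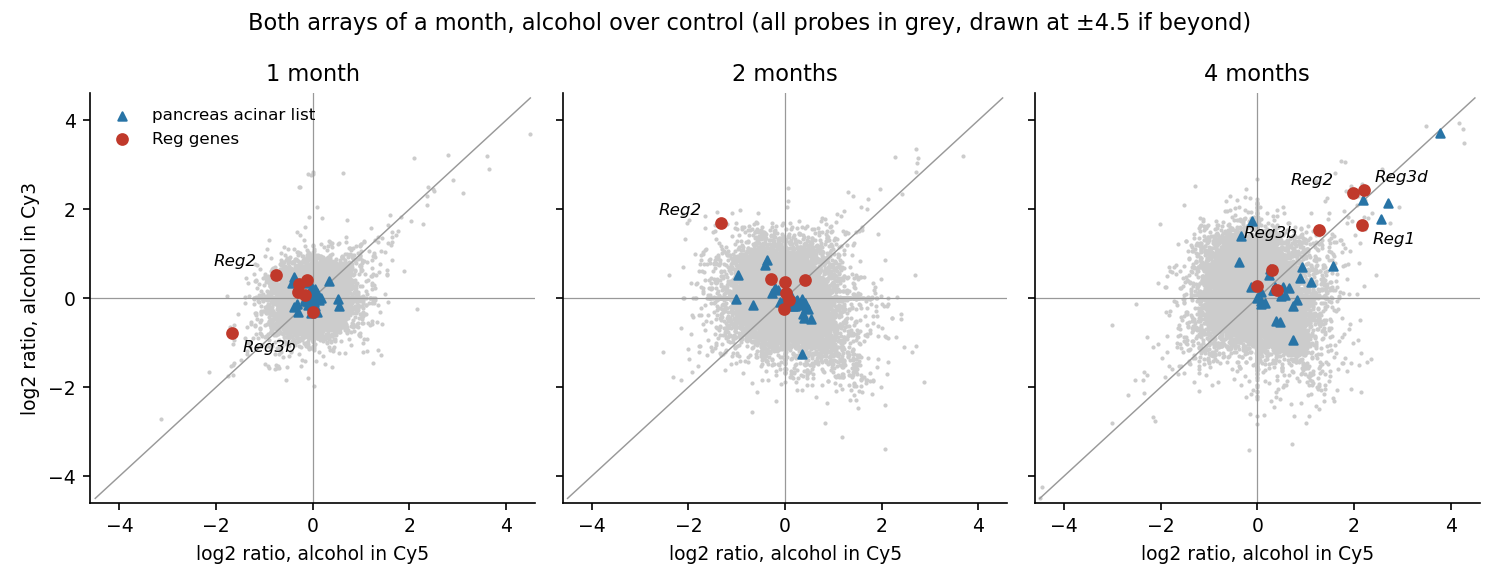
Log2 ratio of alcohol over control where alcohol was in Cy5 (x axis) against the ratio where it was in Cy3 (y axis) at 1, 2 and 4 months, with all 41174 probes in grey, the 7 Reg genes in red and 31 pancreas acinar genes as blue triangles. A probe on the diagonal had the same ratio with either dye. At 4 months Reg1, Reg2, Reg3d and Reg3b stand out along the diagonal in the upper right with 4 of the acinar genes, and at 2 months Reg2 lies in the upper left, where the sign depends on the dye.

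The level of each gene was also set side by side across the 6 pools, as the log2 signal of a channel minus the 75th percentile of all probes in that channel. In the alcohol pools, Reg1 and Reg2 were at least 2-fold higher at 4 months than at 2 months, as were 3.62% of all probes. The reading of Reg3d was too, but its pool of 2 months was not above background, and with loess and Aquantile its reading was under 2-fold higher. These months share a slide, and the median probe differed by at most 0.015 (log2) between them on each scale tried. In the control pools 0 of the 7 genes were at least 2-fold higher at 4 months than at 2 months, where 2.66% of all probes were. The pools of different months are different mice, and no test was made.

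The level of Reg2 in the control pools was -2.47 ± 0.42 (SD), -4.93 ± 1.09 and -4.46 ± 0.20 at 1, 2 and 4 months, and in the alcohol pools it was -2.59 ± 0.49, -4.75 ± 1.04 and -2.30 ± 0.077. The alcohol pool therefore stood 2.46 (log2) higher at 4 than at 2 months, beyond the widest gap of 1.47 between 2 arrays of one pool, and the control pool 0.47 higher, within its gap of 1.54. In order, the alcohol pool of 4 months and both 1-month pools came first without a difference beyond their spread on this scale, while with loess and Aquantile the alcohol pool of 4 months was over 2-fold above that of 1 month. They were followed by the control pool of 4 months and both 2-month pools, which overlapped.

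The level of Reg1 in the control pools was -3.47 ± 1.19 (SD), -5.37 ± 0.021 and -5.23 ± 0.79, and in the alcohol pools -3.46 ± 1.63, -5.31 ± 0.10 and -3.33 ± 0.42 at 1, 2 and 4 months. The 1-month alcohol pool, above background on 1 array, did not differ from any other alcohol pool beyond its array gap of 2.30. The alcohol pool was 1.99 (log2) higher at 4 than at 2 months, beyond the array gap of 0.59, and the control pool 0.14 higher, within the gap of 1.12. Over the 6 pools the levels of Reg1 and Reg2 had a Pearson r of 0.996, Reg1 and Reg3d of 0.94, and Reg2 and Reg3d of 0.91. Members that were not raised reached like values, with 0.97 for Reg3a and Reg4, 0.95 for Reg3b and Reg3g and 0.93 for Reg3a and Reg3b. Reg3b and Reg3d were each above background in 1 of the 6 pools, so their values rest mostly on readings at background. All describe 6 pools on shared arrays and slides. The probe sequences were not analysed here, so whether a probe also binds RNA of a related Reg gene was not tested.

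Reg3d stood at -5.81 ± 0.082 (SD) in the alcohol pool of 4 months, the 1 pool in which it was above background, so no difference from the other pools is given. The alcohol pool of 2 months read -7.11 ± 0.28 and the control pools of 2 and 4 months -7.50 ± 0.28 and -8.13 ± 0.24. On this scale both 1-month pools read as high as the 4-month alcohol pool without being above background, at -5.73 ± 0.43 and -5.76 ± 0.024. With loess and Aquantile those 1-month pools read 7.91 and 7.81, and the 4-month alcohol pool 8.22 (log2). Reg3a was 0.75 (log2) higher at 4 than at 2 months in the alcohol pools, at -4.43 ± 0.12 against -5.18 ± 0.091, beyond the array gap of 0.18. In its control pools it was 0.30 higher, at -4.89 ± 0.35 against -5.20 ± 0.17, within the gap of 0.50. Reg4 was 0.31 higher in the alcohol pools, at -1.08 ± 0.053 against -1.39 ± 0.0030, and stood at -1.37 ± 0.22 and -1.25 ± 0.15 in the control pools of 4 and 2 months. Reg3g kept within its array gaps from 2 to 4 months in both kinds of pool, with -3.05 ± 0.28 and -3.30 ± 0.45 in alcohol and -3.11 ± 0.81 and -3.43 ± 0.26 in control.

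All 7 genes had their highest control level at 1 month on this scale, and 6 did when channels were scaled to their median or with loess and Aquantile. So did 62.7% of all probes, and the 1-month arrays were on their own slide. The control level of Reg3a, for instance, was -2.92 ± 0.24 (SD) at 1 month and 1.97 (log2) lower at 4 months, and that of Reg2 was 1.99 lower. With loess and Aquantile, Reg3a read 9.42 at 1 month and 8.61 at 4 months in control, and Reg2 9.75 and 8.92 (log2). In the control pools 5 genes were at least 2-fold lower at 4 than at 1 month on the 75th percentile scale, and 1 with loess and Aquantile. On the 75th percentile scale the median probe itself fell by 0.51 in the control pools from 1 to 4 months, and by 0.54 in the alcohol pools. In the alcohol pools, Reg1 and Reg2 had their highest level at 4 months, beside 17.4% of all probes. Scaled to the median of each channel instead, 4 genes did.

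**Figure D3:**
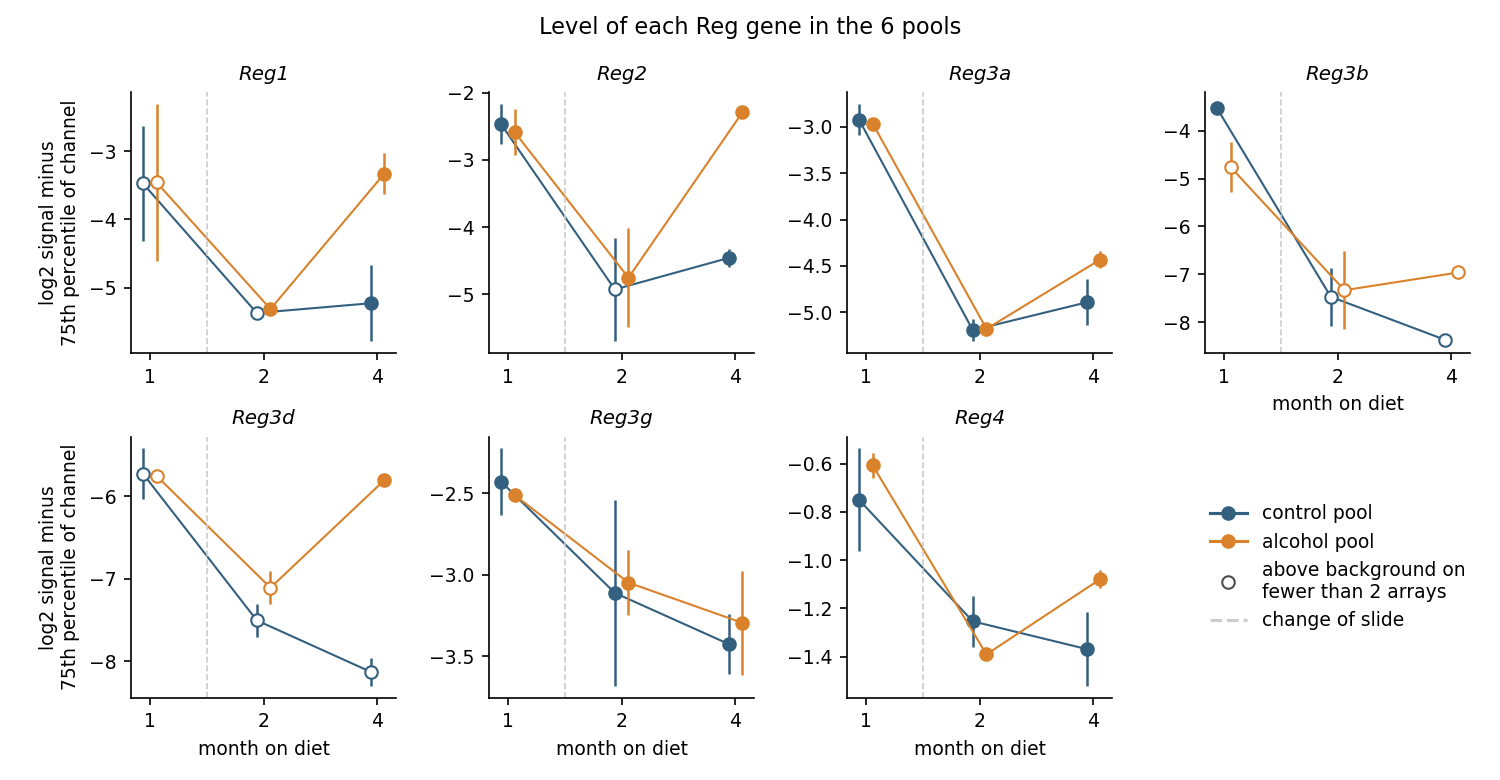
Level of each Reg gene (y axis, log2 signal minus the 75th percentile of its channel) in the control and alcohol pools at 1, 2 and 4 months (x axis), with a point for the mean of the 2 arrays, a bar that spans the 2 arrays, an open point where the pool was above background on fewer than 2 arrays and a dashed line where the slide changes. At 4 months the alcohol pool lies at -3.33 and the control pool at -5.23 for Reg1, and at -2.30 and -4.46 for Reg2, and for Reg3d it lies above a control pool that was not above background. Each panel has its own y axis.

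By a fixed rule, the genes most like the 2 brightest Reg probes over the 6 pools were sought among 37915 probes. For Reg4 they were C330008K14Rik, Prtn3, Olfr900, Csmd2 and Mut, with a Pearson r of at least 0.996, and for Reg3g they were Olfr1371, Dnal1, NAP093165-001, Nck1 and AF218659, with r of 0.999. Olfr900 and Mut were above background in 1 channel of the series. With 6 pools and so many probes such values are a description only. For Reg2 and Reg1, added after their values were seen, 3 gene names were among the 5 most like both, LOC215895, with r of 0.990 and 0.995, AK047394, with 0.995 and 0.989, and Gdpd1, with 0.986 and 0.989. Their log2 ratios at 4 months were 1.51, 1.49 and 0.44, and AK047394 was above background in 1 channel of that month.

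Since Reg genes are known from the exocrine pancreas, the markers of pancreatic acinar cells were measured beside them. Of 31 acinar genes on the array, 5 were raised at 4 months, beside 0.340% of all probes, and 0 at 1 or 2 months. They were Cela2a, an elastase, at 3.75 ± 0.042 (SD, log2), Pnliprp1, a lipase-related protein, at 2.42 ± 0.38, Try5, a trypsin, at 2.20 ± 0.0099, Cpb1, a carboxypeptidase, at 2.17 ± 0.55, and Prss3, another trypsin, at 1.14 ± 0.59. At 2 months the same 5 probes lay between -0.52 ± 0.70 (SD) for Cela2a and 0.25 ± 0.88 for Cpb1. In that month Cela2a was above background in the control pool alone, on 1 array, and Cpb1 changed sign with the dye (-0.38 and 0.87). The 5 genes were named after their values were seen, since they are those past the rule.

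The 8 acinar genes with the brightest probes were not raised. At 4 months Ctrb1, a chymotrypsinogen, had a log2 ratio of 0.25 ± 0.085 (SD), Ctrc, a chymotrypsin, 0.40 ± 0.20, Amy2a5, the pancreatic amylase, 0.38 ± 0.20, and Clps, the colipase, 0.26 ± 0.12. Sycn, a zymogen granule protein, was at 0.11 ± 0.039, Bhlha15, an acinar transcription factor, at 0.055 ± 0.27, Klk1, a kallikrein, at 0.023 ± 0.19, and Ctrl, another chymotrypsin, at 0.014 ± 0.10. Of the whole list 26 of 31 genes were above 0 at 4 months, 21 at 2 months and 14 at 1 month. Both arrays gave the same sign for 18, 4 and 16 of the 31 in that order, beside 30.6%, 32.9% and 42.6% of all probes. The median log2 ratio of the list was 0.32, 0.021 and -0.028. At 2 months that median was 0.13 on the first array and -0.072 on the second, and so has no direction. All but 1 of the 31 were above background in a pool at 4 months, the exception being Cuzd1, and so were 82.2% to 90.3% of all probes in a channel of that month. The summed level of the list, in units of the 75th percentile of the channel, was 59.4 to 73.7 in the control pool and 76.3 to 83.6 in the alcohol pool at 4 months, and the ranges overlapped at 1 and 2 months. The 5 raised acinar genes and Reg1, Reg2 and Reg3d were high in the same pool, and the part of pancreatic RNA in the Reg result was not tested.

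Markers of the other epithelia and of the endocrine pancreas were measured in the same way. The rule marked 0.126%, 0.160% and 0.340% of all probes as raised at 1, 2 and 4 months, and 0.0801%, 0.129% and 0.282% as lowered. At such shares a count of 0 is usual for lists of this size and sets no list apart. Of 18 genes of the endocrine pancreas 0 were raised or lowered in any month, with Ins1, one of the insulin genes, at -0.037 ± 0.0018 (SD, log2) and Ins2 at 0.024 ± 0.55 at 4 months. Pcsk2 was at -0.12 ± 0.35 and Ppy at 0.10 ± 0.081. Of 21 intestinal genes 1 was lowered at 4 months, Fabp6, the ileal bile acid binding protein, at -1.03 ± 0.13, and 0 were raised, beside 0.282% and 0.340% of all probes. The summed level of the intestinal list at 4 months was 69.7 to 70.0 in the control pool and 61.5 to 66.7 in the alcohol pool. Fabp2, Ang4, Agr2 and Cldn15, the brightest of that list, were at -0.50 ± 0.54, -0.27 ± 0.47, -0.094 ± 0.13 and -0.060 ± 0.45. Of 13 bile duct genes, with Krt7, Cftr and Slc4a2 between -0.031 and -0.0055, and of 10 salivary gland genes, with Dcpp1, Amy1, Klk1b9 and Bpifa2 between -0.23 and 0.034, 0 passed the rule in any month.

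Of 29 genes of IL-6 and IL-22 signalling, the route known to induce Reg3b and Reg3g in the gut, 0 were raised or lowered in any month. Of all probes 0.126%, 0.160% and 0.340% were raised at 1, 2 and 4 months and 0.0801%, 0.129% and 0.282% lowered. At those shares 0 is usual for 29 genes, and the part of this route in the Reg result was not tested. At 4 months Stat3 was at 0.0040 ± 0.035 (SD, log2), and the receptor chains Il6ra and Il11ra1 at 0.19 ± 0.35 and -0.020 ± 0.12. Il17rc, an IL-17 receptor chain placed in the same list, was at -0.10 ± 0.027. Among 28 acute phase genes of the liver, 3 were raised at 4 months, beside 0.340% of all probes, and 1 at 2 months, beside 0.160%. The summed level of this list at 4 months, in units of the 75th percentile, was 261 to 266 in the control pool and 306 to 308 in the alcohol pool. The ranges overlapped at 1 and 2 months, and such a sum is weighted toward the brightest probes. The median log2 ratio of the list at 4 months was 0.044 on the first array and 0.28 on the second. Both arrays gave the same sign for 15 of the 28 genes, beside 30.6% of all probes. The part of this list in the Reg result was not tested. Mt1, a metallothionein, was 2.82-fold higher at 4 months, Lcn2, an antibacterial lipocalin, was at 1.04 ± 0.47 and Cebpd, a transcription factor, at 1.04 ± 0.069 (log2), and Lcn2 was also the gene raised at 2 months, at 1.28 ± 0.47. Saa3 and Saa2, inducible serum amyloids named after their values were seen, were lower on both 4-month arrays and did not pass the rule, at -0.97 ± 0.49 and -0.77 ± 0.10. Hp, Hpx, Fga and Fgb, abundant plasma proteins of the same list, were at 0.28 ± 1.04, 0.067 ± 0.41, 0.00017 ± 0.36 and 0.11 ± 0.76.

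The remaining lists are relatives of the Reg proteins by fold or by role, and hepatocyte genes. At the shares of all probes given above, a count of 0 is again usual for lists of this size. Of 19 C-type lectins of the liver 0 were raised or lowered, with Asgr2, Mbl1, Clec4f and Clec2d at -0.079 ± 0.15 (SD, log2), 0.012 ± 0.45, -0.0030 ± 0.41 and -0.46 ± 0.32 at 4 months. Of 18 antimicrobial proteins 2 were raised at 4 months, Lcn2 and S100a8, beside 0.340% of all probes, and the S100a8 probe was above background in neither pool. Lyz2, Pglyrp2 and Hamp of that list were at -0.057 ± 0.44, 0.012 ± 0.42 and 0.32 ± 0.38. Of 17 hepatocyte genes 0 passed the rule, and several of the brightest changed sign with the dye at 4 months. Apoa1 was at 1.23 and -1.34, Fabp1 at 1.29 and -1.42 and Ass1 at 0.89 and -0.50. Apob was at -0.16 and 0.19, with a mean of 0.016 ± 0.25.

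**Figure D4:**
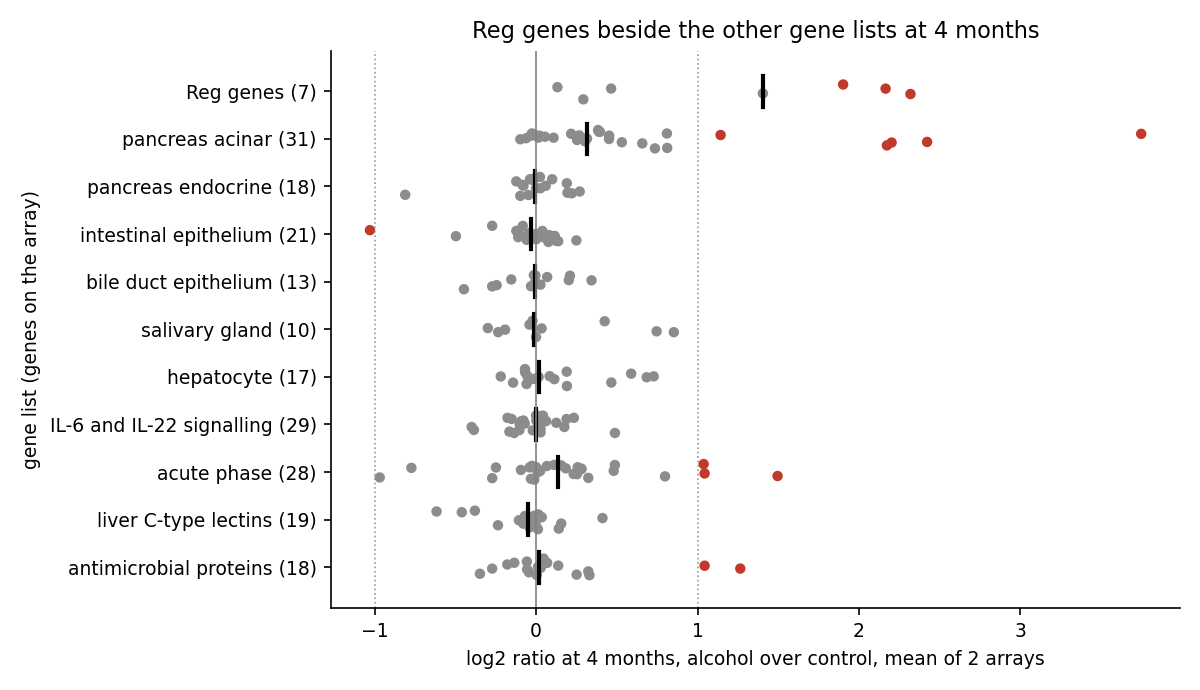
Mean log2 ratio of alcohol over control at 4 months (x axis) for each gene of the Reg family and of 10 other gene lists (y axis, with the number of genes on the array), in red where the gene passed the 2-fold rule, with a black bar for the median of the list and dotted lines at 2-fold. The median of the 7 Reg genes, 1.41, is the ratio of Reg3b, above background in neither pool, and was 0.41 with normexp and loess. The medians were 0.32 for the 31 pancreas acinar genes and 0.13 for the 28 acute phase genes, and between -0.052 and 0.021 for the other lists. They depend on the array. On the first and second array the median was 0.46 and 0.24 for the acinar and 0.044 and 0.28 for the acute phase list. It was 0.68 and -0.0067 for the hepatocyte and -0.14 and 0.28 for the antimicrobial list.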

How the data were processed

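RNA from liver was compared on 6 two-colour Agilent arrays, a dye-swap pair for each of 3 months. The authors scanned the arrays and processed them with Feature Extraction (version 9.1.1.1 per the file headers), which subtracts background and normalizes the dyes. The deposited scanner files hold the intensity of each channel and a log10 ratio of Cy5 over Cy3 with its error for each spot, and the deposited series table holds log10 ratios already turned to alcohol over control. The build behind the probe annotation is not given in the sources used here.

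Here each log10 ratio was turned to alcohol over control by the dye in the labels, put on the log2 scale, and averaged over the spots of a probe and then over the 2 arrays. Control spots were left out. A probe was counted as raised or lowered at 2-fold or more with a p below 0.05 from the deposited error, a technical filter. Levels were log2 processed intensity minus the 75th percentile of the channel. Alternatives used normexp (offset 50) with loess and Aquantile in limma 3.58.1 (R 4.3.3), the deposited table, error weighting, median centring, single arrays, a filter on dim probes, other fold rules and other level scales. Limits of folds came from the normexp values. The averaging and counting steps were tested on simulated data. Python 3.11.15, numpy 2.4.6, pandas 2.3.3 and scipy 1.17.1 were used.

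RefSeq transcripts gave a current symbol to 22951 of 41174 probes, and all 7 Reg genes matched the RefSeq promoter table. Probes above background made up 73.1% to 90.3% of a channel, and with 2 arrays a month their number limits the precision. The text names all Reg probes, the 4 brightest genes of each list above background (8 for the acinar list), and the 5 genes most like each of the 2 brightest Reg probes, except 1 gene that is not reported here. The members and lists were chosen with earlier results of these data known.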

Additional observations from a re-analysis of the deposited data

Results flagged for a closer look

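Reg4, the family member of the digestive tract, had a log2 ratio of alcohol over control below 0 on both arrays at 2 months (-0.017 and -0.24) and above 0 on both at 4 months (0.41 and 0.18). The mean was 0.42 higher at 4 months than at 2 months, and this difference was not tested.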

How the results depend on the processing

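Over the 126 ratios of the Reg genes recomputed under 6 settings, 113 kept their sign, and 0 of those of a gene counted as raised or lowered turned. Either 4-month array alone gave 3 raised genes. At 4 months Reg1 ranged from 2.77-fold to 4.48-fold and Reg2 from 3.67-fold to 5.13-fold, while Reg3d no longer passed 2-fold with normexp and loess, which left 2 genes raised in place of 3. The count of lowered genes at 1 month was 1, Reg3b, and became 0 with normexp and loess and 0 when 2-fold was asked of each array, and single arrays gave 0 to 1. At 2 months single arrays gave 0 to 1 raised and 0 to 1 lowered, in both cases Reg2. The median of the pancreas acinar list at 1 month, -0.028, was -0.012 with normexp and loess, -0.020 with error weighting, -0.037 without dim probes and -0.034 with the mean over the probes of a gene, and single arrays gave -0.029 to -0.023. The number of genes with their highest alcohol level at 4 months was 2, became 4 when channels were scaled to their median, and was 1 to 3 on single arrays, an alternative added after the data were seen. With loess and Aquantile 2 readings in place of 3 were at least 2-fold higher at 4 than at 2 months in the alcohol pools, without Reg3d. The causes were not tested. The deposited table lay within 0.02 (log2) of the scanner files for 99.4% of probes on all arrays. Signals of Reg3b and Reg3d near background limit what can be said of them.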
